A study of Arabidopsis thaliana with 44 samples.

Results

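The measurements described here come from 2 stretches of the Arabidopsis thaliana genome in which the seed transcriptome of near isogenic line (NIL) DOG1 stood apart from that of NILs DOG3 and DOG6. The members are the measured loci numbered AT4G18280 to AT4G20090 on chromosome 4 and AT5G01010 to AT5G02830 on chromosome 5, taken in locus order, without 9 named loci that lie inside these ranges. This gave 193 members on chromosome 4 and 198 on chromosome 5, 391 of the 27827 probe sets in all. Each range held 200 measured loci, of which 7 and 2 were left out. The stretches were chosen by the measured differences of NIL DOG1 from the other lines in these same data. Every line difference given below, and every call made on one, is therefore a description. Of the line differences, only their variation between conditions was tested.

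The arrays measured total RNA of freshly harvested dry seed of NIL DOG1 (15 arrays), NIL DOG3 (14 arrays) and NIL DOG6 (15 arrays). The mother plants grew at 15C, at low nitrate (N0), at 20C, in low light (LL) or in standard light (SL). 20C was the control of 15C and of N0, so those comparisons share their control arrays, and SL was the control of LL. The 15 groups held 3 arrays each, or 2 for NIL DOG3 at N0, and per the labels each replicate was a bulk of 4 plants from a randomized block layout. All groups carry a near isogenic genome, so no line here is an unaltered parent, and each genotype is represented by 1 line. The values are RMA log2 values, on which a difference of 1 is 2-fold, and errors after ± are standard errors (SE) from limma unless named otherwise.

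A near isogenic line carries a short piece of one accession's genome in the background of another, and the lines here are named for DELAY OF GERMINATION loci, which set how deeply a fresh seed sleeps. Crossing and selection can leave further donor pieces away from the selected locus, and whether the stretches described here are such pieces was not tested. A mature seed is a mixture of embryo, endosperm and seed coat that stores both reserves and messenger RNA for germination.

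The labels could be checked against known genes. The DOG1 gene (AT5G45830), a central regulator of dormancy that lies outside both stretches, averaged 8.20 in NIL DOG1, 7.09 in NIL DOG3 and 6.81 in NIL DOG6. Within each of the 5 conditions the arrays of NIL DOG1 did not overlap with those of the other lines at this gene. The array means of 11 seed storage and late embryogenesis markers lay between 11.4 and 12.0 in all lines, and those of 4 leaf RBCS markers between 3.13 and 3.82. Single RBCS values ran from 1.37 to 8.44, so not every leaf marker was dim on every array. Array medians ran from 4.22 to 4.39, and correlations between arrays of a group from 0.987 to 0.994. Means of 4 pollen markers were 7.68 to 8.58 on the 3 SL arrays numbered 2 and 5.81 to 7.57 on the other 6 SL arrays, so the LL counts, the line counts within SL, the F test and the LL changes of the genes named below are also given without those 3.

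A locus was called apart in NIL DOG1 when its difference from NIL DOG3 and its difference from NIL DOG6, each the mean over the 5 conditions, had the same sign and an adjusted p under 0.05 over all probe sets. On chromosome 4, 42 of 193 members were apart (21.8%), 19 higher and 23 lower in NIL DOG1. On chromosome 5, 41 of 198 were apart (20.7%), 18 higher and 23 lower. Over all probe sets the share was 3.7% (1.76% higher, 1.93% lower), and since the rule used this contrast nothing is read from the excess. NIL DOG1 differed from NIL DOG3 at 48 and 68 members (11.1% of all probe sets) and from NIL DOG6 at 51 and 65 (8.25% of all). At 12 members of the chromosome 4 stretch and 9 of the chromosome 5 stretch every NIL DOG1 array lay above or below every other array, against 0.323% of all probe sets.

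**Figure D1:**
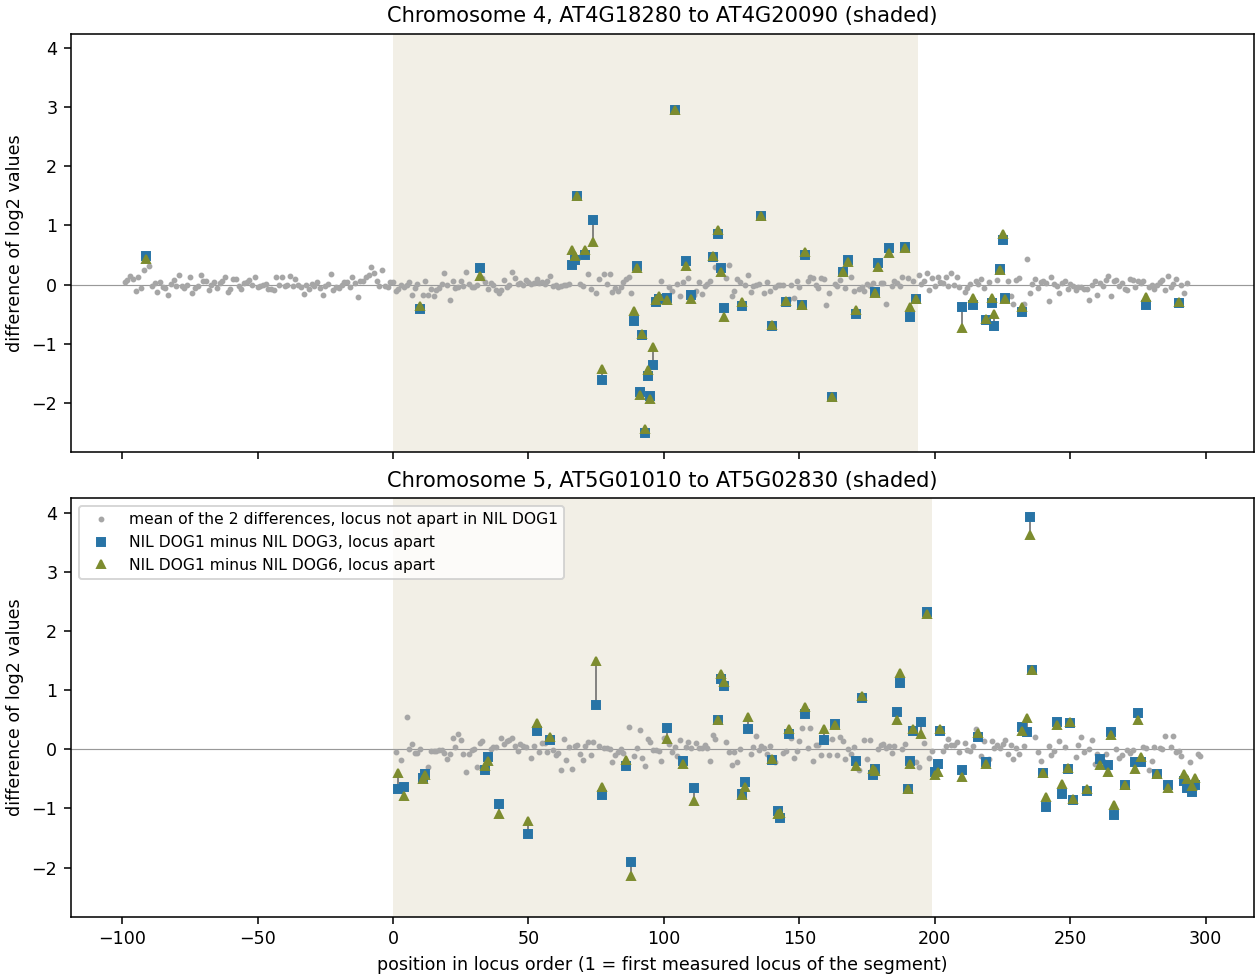
Difference of log2 values between NIL DOG1 and the other lines (y axis) along both stretches in locus order (x axis, position counted from the first member, members shaded). Squares show NIL DOG1 minus NIL DOG3 and triangles NIL DOG1 minus NIL DOG6 for loci apart in NIL DOG1, while grey points are the mean of both differences at the other loci; the shaded chromosome 4 stretch begins with few apart loci, and on both chromosomes differences lie beyond the end of the shaded stretch.

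The differences were not spread evenly along the members. Among the first 60 members on chromosome 4, AT4G18280 to AT4G18823, 2 were apart in NIL DOG1 (3.33%), close to the share of all probe sets. Among the remaining 133, AT4G18830 to AT4G20090, 40 were apart (30.1%), while NIL DOG3 stood apart from both others at 4 of them and NIL DOG6 at 3 (4.36% and 2.73% of all probe sets). The position of this division, and of the one on chromosome 5, was chosen after the values were seen.

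The chromosome 5 stretch was not distinct in NIL DOG1 alone. Among its first 140 members, AT5G01010 to AT5G02250, 24 were apart in NIL DOG1 (17.1%), 21 in NIL DOG3 (15%) and 14 in NIL DOG6 (10%). Among its last 58, AT5G02260 to AT5G02830, 17 were apart in NIL DOG1 (29.3%) and 2 in each of the other lines. NIL DOG6 and NIL DOG3 differed from each other at 42 of the 198 members (21.2%) and at 10 of 193 on chromosome 4 (5.18%), against 9.61% of all probe sets.

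**Figure D2:**
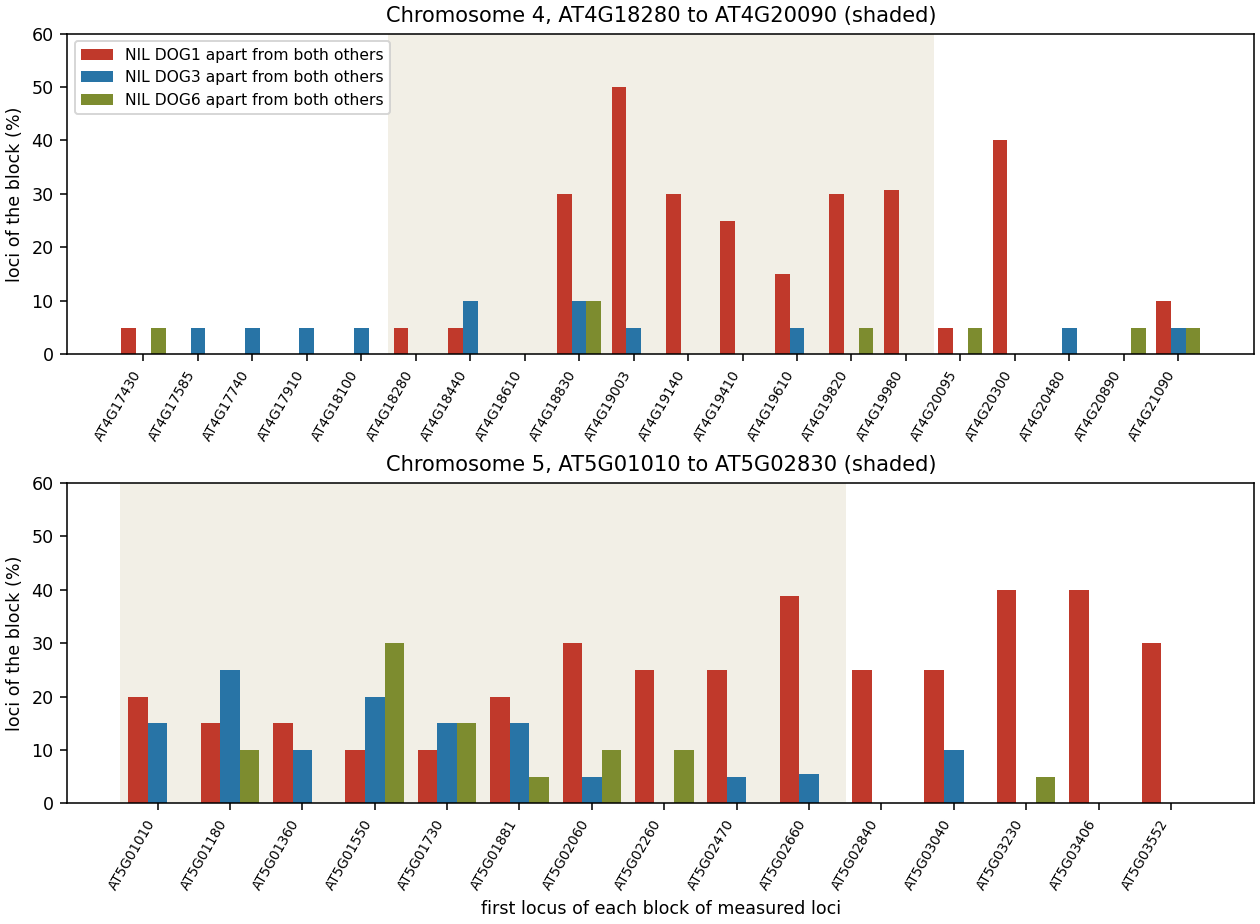
Share of loci (y axis, %) at which NIL DOG1, NIL DOG3 or NIL DOG6 stood apart from both other lines, in blocks of 20 measured loci (the last block of each stretch is shorter) named on the x axis by their first locus, with the members shaded. NIL DOG1 holds most apart loci from AT4G18830 onward, while all 3 lines hold some from AT5G01010 to AT5G02250.

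At the outer limits the members went over into their surroundings in different ways. The first 3 members on chromosome 4, including the potassium channel gene KAT2, differed by between -0.11 and 0.00 from either line, and the 3 loci before them, among them TRANS11, by between -0.04 and 0.12. At the other end EMB1895 was lower in NIL DOG1 by 0.55 and 0.38 than in NILs DOG3 and DOG6, and EMB1025 by 0.24 against both, while the 3 loci after them were not apart. The last block inside, AT4G19980 to AT4G20090, held 4 of 13 loci apart in NIL DOG1. The next block outside, AT4G20095 to AT4G20290, held 1 of 20, so the share dropped at this end. Further on, 8 of the 20 loci AT4G20300 to AT4G20470 were again apart in NIL DOG1. The chromosome 5 stretch begins at the first measured locus of that chromosome. Beyond its last member, the next 5 blocks of 20 loci held 5, 5, 8, 8 and 6 loci apart in NIL DOG1, starting with AT5G02850 (-0.38 and -0.43 against NILs DOG3 and DOG6) and AT5G02860 (-0.24 and -0.39).

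NCED4 (AT4G19170), also named CCD4, encodes a plastid dioxygenase that cleaves carotenoids, and it had the largest difference of the 391 members. Its log2 values were 7.08, 7.70 and 8.84 (lowest, median and highest array) in NIL DOG1, against 4.24, 4.81 and 5.70 in NIL DOG3 and 4.26, 4.69 and 5.49 in NIL DOG6. No NIL DOG1 array overlapped with any other, and the differences were 2.95 ± 0.13 and 2.94 ± 0.13, or 7.75-fold and 7.69-fold. An array reads signal through fixed probes, so a difference in RNA amount and a difference in sequence under the probes cannot be told apart here, at this gene or at any other member. Nor can fewer cells of a type and less RNA per cell be told apart in whole seed.

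The 2 cyclin T genes of the chromosome 4 stretch differed in opposite directions. Cyclin T is the partner of a kinase that releases RNA polymerase II into elongation. CYCT1;2 (AT4G19560) had values of 3.71, 4.19 and 4.66 in NIL DOG1, against 2.69, 3.02 and 3.35 in NIL DOG3 and 2.77, 3.07 and 3.42 in NIL DOG6, a difference of 1.16 ± 0.07 and 1.15 ± 0.07. CYCT1;4 (AT4G19600) had 7.39, 7.64 and 7.89 in NIL DOG1, against 8.17, 8.37 and 8.50 in NIL DOG3 and 7.96, 8.33 and 8.65 in NIL DOG6, a difference of -0.70 ± 0.05 and -0.69 ± 0.05. At both genes the NIL DOG1 arrays lay wholly outside the range of the other lines.

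Other members higher in NIL DOG1 on chromosome 4 were AT4G18900 (2.83-fold against each line), AT4G18950 (1.09 and 0.71 against NILs DOG3 and DOG6), AT4G19400 (0.85 and 0.92), AT4G20040 (0.64 and 0.61), AT4G18920 (0.49 and 0.58) and FRS1, a relative of the light signalling factor FAR1 (0.61 and 0.53). Smaller positive differences were seen at AK-HSDH II, a bifunctional enzyme of the aspartate pathway (0.49 and 0.54), at the brassinosteroid signalling homologue BEH3 (0.42 and 0.49), at the heat shock factor gene HSF A4A (0.34 and 0.58) and at the potassium transporter gene KUP9 (0.36 and 0.29).

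Members lower in NIL DOG1 included 8 consecutive measured loci, AT4G19060 to AT4G19112. Among all measured loci in locus order, no longer run of loci apart in NIL DOG1 in 1 direction was found on any of the 5 chromosomes. The rule chose the stretch on this same contrast, so nothing is read from the length of the run. There were 2 runs of 5, 2 of 4, 14 of 3 and 79 of 2. The other 794 apart loci had no measured neighbour apart in the same direction. At AT4G19080 the values were 2.32, 2.59 and 2.77 in NIL DOG1, against 4.62, 5.03 and 5.70 in NIL DOG3 and 4.39, 4.95 and 5.48 in NIL DOG6, which is 5.69-fold and 5.42-fold lower (-2.51 ± 0.08 and -2.44 ± 0.08). AT4G19060, AT4G19070, AT4G19090, AT4G19095 and PAM68, which encodes an assembly factor of photosystem II, were also without overlap. Their differences ran from -1.89 (AT4G19095) to -0.85 (AT4G19070) against NIL DOG3 and from -1.94 (AT4G19095) to -0.84 (AT4G19070) against NIL DOG6.

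PAM68 (AT4G19100) had values of 3.92, 4.25 and 4.68 in NIL DOG1, against 5.26, 5.68 and 5.94 in NIL DOG3 and 4.71, 5.38 and 5.67 in NIL DOG6. The remaining pair of the run, AT4G19110 and AT4G19112, differed by between -0.30 and -0.20 and its arrays overlapped. Values of this pair tracked each other. In NIL DOG1 both loci were lowest on 20C replicate 1 (8.64 and 8.83) and highest on LL replicate 3 (9.28 and 9.35). Whether both read the same signal, which the run length would then count more than once, was not tested. On one side the run was preceded by AT4G19050, which was higher in NIL DOG1 (0.32 and 0.28 against NILs DOG3 and DOG6). On the other side ERD3 had medians of 2.44 in NIL DOG1, 2.48 in NIL DOG3 and 2.42 in NIL DOG6 and was not apart. The TAIR10.1 gene table lists 9 loci from AT4G19060 to AT4G19110, of which 7 were measured.

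**Figure D3:**
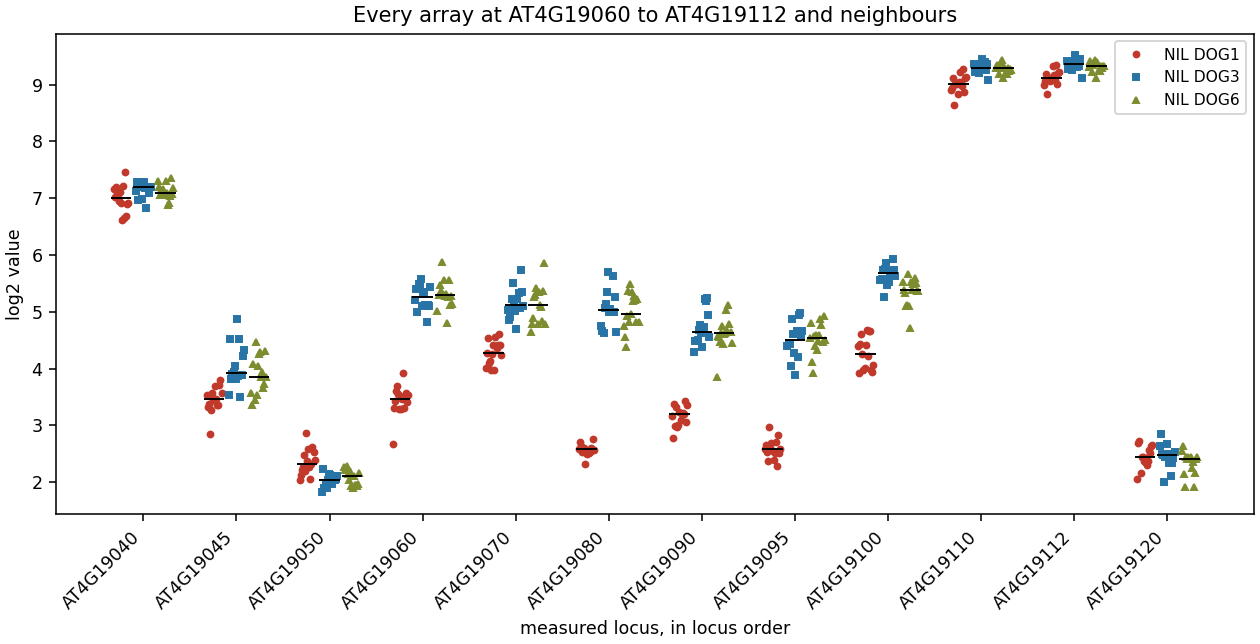
Log2 value (y axis) on every array at the run AT4G19060 to AT4G19112 and at the loci beside it (x axis, in locus order), by line, with the median as a bar. NIL DOG1 lies below all other arrays at the first 6 loci of the run, for instance at 2.32 to 2.77 for AT4G19080, and overlaps with them at AT4G19110 and AT4G19112.

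Elsewhere on chromosome 4, AT4G19829 was lower in NIL DOG1 (-1.89 against NIL DOG3 and -1.90 against NIL DOG6, each ± 0.09). AT4G18975 had 5.71, 5.88 and 6.17 in NIL DOG1, against 7.33, 7.47 and 7.76 in NIL DOG3 and 7.09, 7.27 and 7.56 in NIL DOG6. Both loci were free of overlap between NIL DOG1 and the other lines. Smaller negative differences were measured at the glycolate oxidase family gene GOX3 (-0.41 and -0.36), at VPS54, a subunit of a vesicle tethering complex (-0.36 and -0.30), and at the ABC protein gene ABCE2 (-0.18 and -0.25).

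On chromosome 5, RHL2 (AT5G02820) encodes a subunit of plant topoisomerase VI, which is needed for endoreduplication. It had values of 5.25, 5.79 and 6.11 in NIL DOG1, against 3.17, 3.50 and 3.69 in NIL DOG3 and 3.17, 3.49 and 3.93 in NIL DOG6. The NIL DOG1 arrays did not overlap with the others, and the differences were 2.32 ± 0.06 and 2.28 ± 0.06, or 4.99-fold and 4.87-fold. AT5G02060 (1.18 and 1.26), AT5G02720 (1.12 and 1.28) and AT5G02580 (0.87 and 0.89) were higher in NIL DOG1 without overlap, and AT5G02070 (1.07 and 1.13) was higher with overlap over all arrays. MT2B, a metallothionein that binds copper and zinc, was higher by 0.60 and 0.71, and AT5G02710 by 0.63 and 0.49.

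RAPTOR2 (AT5G01770), a partner protein of the growth kinase TOR, had the largest negative difference of the chromosome 5 members. Its values were 3.45, 3.65 and 4.38 in NIL DOG1, against 5.24, 5.62 and 6.17 in NIL DOG3 and 5.63, 5.83 and 6.57 in NIL DOG6. No array of NIL DOG1 reached those of the other lines, and the signal was 3.74-fold and 4.40-fold lower (-1.90 ± 0.10 and -2.14 ± 0.10). Other members lower in NIL DOG1 without overlap were AT5G01445 (-1.43 and -1.22), AT5G02280 (-1.17 and -1.08), AT5G01980 (-0.65 and -0.88) and ABCI20, an ABC protein gene (-1.05 and -1.09). The mitochondrial succinate and fumarate carrier gene mSFC1 (-0.93 and -1.09), SGR9, a RING protein gene of shoot gravitropism (-0.68 against each line), and AT5G02140 (-0.76 and -0.77) were lower with some overlap.

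CHX26 (AT5G01680), a member of the cation and proton exchanger family, took a different level in each line. Its values were 7.38, 8.01 and 8.50 in NIL DOG1, against 6.95, 7.25 and 7.61 in NIL DOG3 and 5.85, 6.42 and 7.15 in NIL DOG6. It was highest in NIL DOG1 and lowest in NIL DOG6, with neighbouring lines overlapping in part, and NIL DOG6 minus NIL DOG3 was -0.75 ± 0.06.

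Several members of the first 140 on chromosome 5 stood apart in another line instead. LAC8, a laccase gene, averaged 3.71 in NIL DOG1, 3.47 in NIL DOG6 and 2.84 in NIL DOG3, and AT5G01390 averaged 8.67, 8.78 and 8.19 in the same order. The neighbours AT5G01210 (5.79, 5.86 and 5.23) and AT5G01215 (5.14, 5.34 and 4.67) were also lowest in NIL DOG3, whereas the lectin receptor kinase gene LECRKA4.3 (3.03, 3.02 and 3.72) was highest there. For CIPK15 and SR1, also named CIPK14, which encode kinases regulated by calcineurin B-like calcium sensors, the line that differed was NIL DOG6. NIL DOG6 minus NIL DOG3 was 0.53 ± 0.07 at CIPK15 and 0.56 ± 0.10 at SR1, and NIL DOG1 minus NIL DOG6 was -0.42 ± 0.07 and -0.57 ± 0.10.

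Most apart members differed by modest amounts. The smaller of the differences from the other lines had a median size of 0.43 on chromosome 4 (0.13 to 2.94) and 0.48 on chromosome 5 (0.14 to 2.28). It was under 0.5 for 26 of 42 and 23 of 41 apart members, and at least 1, a 2-fold difference, for 10 and 8, against 0.27% of all probe sets. Of the apart members 32 of 42 and 36 of 41 had a mean signal above the median of all probe sets (4.29), against 56 of 151 and 66 of 157 of the members not apart. Signals of different probe sets are not amounts that can be set against each other, and dim probe sets carry less information on any difference.

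In the gene family lists most members were not apart from both other lines in NIL DOG1, though some differed from 1 of them, as given above for LAC8, LECRKA4.3, CIPK15 and SR1. NIL DOG3 also stood apart from both other lines at 1 of the 9 chitinase-like genes. None of 9 chitinase-like genes of glycosyl hydrolase family 18, none of 4 TIR-NBS-LRR resistance-like genes, none of 3 lectin receptor kinases of the A4 group, none of 3 laccases and none of 3 CBL-interacting kinases was apart in NIL DOG1. Of the metal genes, the transporters IRT1, IRT2 and NRAMP5 had line means of 1.84 to 2.46 and the iron store FER1 of 7.96 to 8.31, and none was apart. The pairs of lambda glutathione transferases, NIP1 aquaporins, phloem proteins and pyruvate decarboxylases held none either. Hsp70-2 (AT5G02490) was higher in NIL DOG1 by 0.42 ± 0.11 and 0.41 ± 0.11, with overlap in each condition, while its neighbour HSC70-1, the abundant cytosolic chaperone, was not apart.

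The line difference was then followed through the growth conditions. Members called in the same direction against both other lines within a single condition numbered 16 on chromosome 4 and 17 on chromosome 5 at 15C, 15 and 18 at N0, 18 and 18 at 20C, 19 and 16 in LL, and 17 and 20 in SL. The shares of all probe sets were 0.733% at 15C, 0.618% at N0, 0.776% at 20C, 0.873% in LL and 0.783% in SL. Without the SL arrays numbered 2, the SL counts were 11 and 12. Of the 83 apart members, 82 kept the sign of NIL DOG1 minus the mean of the other lines in all 5 conditions, and AT4G19410 did so in 4. In all 5 conditions 23 were called against both lines, and 33 were called in none, where each comparison rests on 3 arrays or fewer a line. The 83 were called apart on the mean of these same 5 conditions, which favours a kept sign and calls within them. The same counts for apart probe sets outside the stretches were not made, so nothing is read from these.

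NCED4 exceeded the mean of the other lines by 3.18 ± 0.25 at 15C, 2.87 ± 0.26 at N0, 3.34 ± 0.25 at 20C, 2.75 ± 0.25 in LL and 2.60 ± 0.25 in SL. For RHL2 the difference was 2.09 ± 0.12 at 15C, 2.07 ± 0.12 at N0, 2.69 ± 0.12 at 20C, 2.36 ± 0.12 in LL and 2.30 ± 0.12 in SL. RAPTOR2 differed by -2.04 ± 0.19 at 15C, -2.11 ± 0.20 at N0, -2.24 ± 0.19 at 20C, -2.06 ± 0.19 in LL and -1.66 ± 0.19 in SL. Each of these genes was thus high or low in NIL DOG1 in every condition, and limma's F test of a difference between conditions was not passed (adjusted p = 0.897 for NCED4, 0.508 for RHL2 and 0.91 for RAPTOR2).

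**Figure D4:**
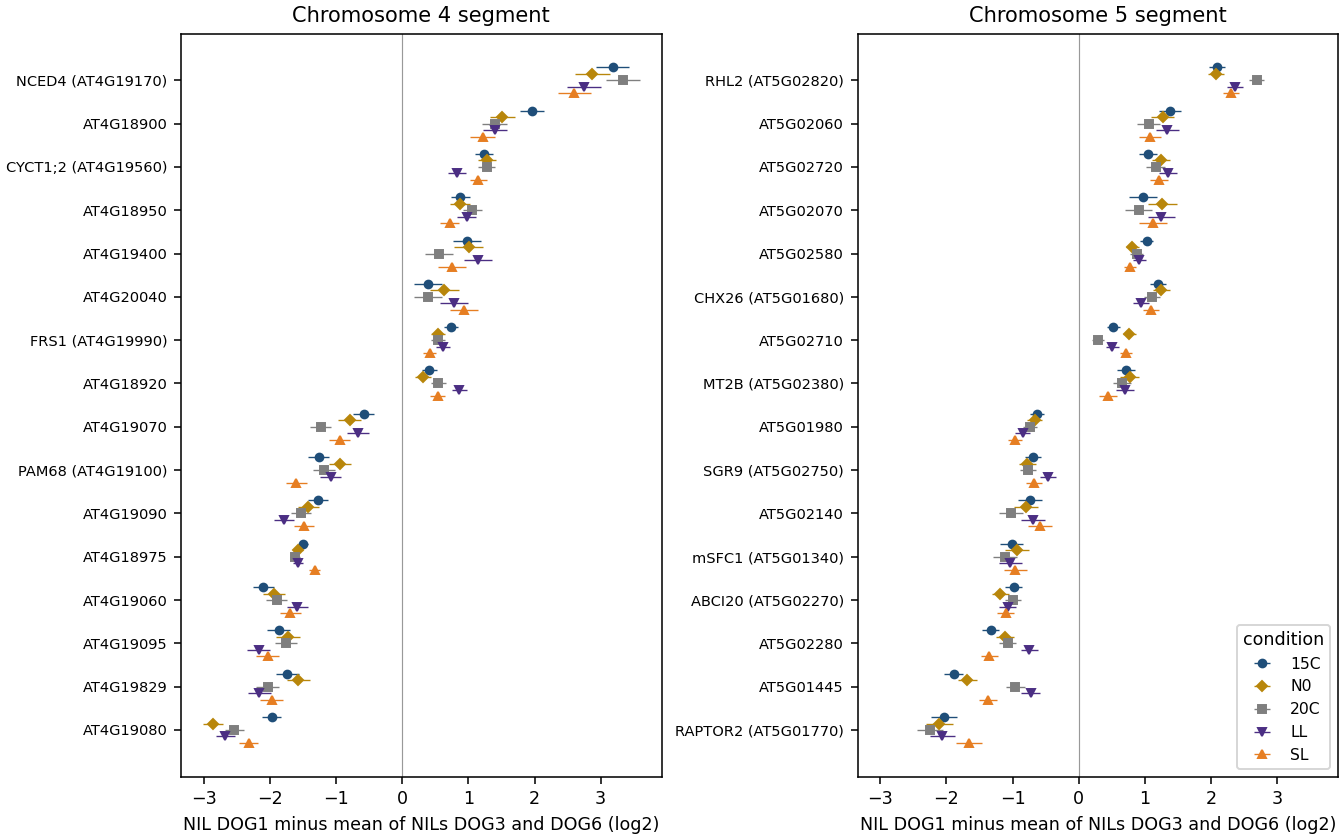
NIL DOG1 minus the mean of NILs DOG3 and DOG6 (x axis, log2, ± SE) at the members with the largest differences in each direction (y axis), with 1 marker for each of the 5 growth conditions. Every member shown keeps its side of 0 in all conditions, and the markers of AT5G01445 spread from -1.89 at 15C to -0.73 in LL.

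Whether the NIL DOG1 difference varied with the condition was tested with a moderated F test in limma over all probe sets. This test does not use the mean difference by which the stretches were chosen. It shares the arrays and the estimate of spread with that difference, so it is not fully independent of the choice. A difference between conditions was called at 0 members on chromosome 4 and 2 on chromosome 5, against 7 of 27827 (0.0252%). At an unadjusted p under 0.05 the counts were 19 (9.84%) and 18 (9.09%), against 6.38% of all probe sets. Neither call held in every fit that left out 1 array, as the closing section details.

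The first was AT5G01445 (adjusted p = 0.0323, limma), where NIL DOG1 stayed level while the other lines moved. At 15C the arrays read 5.39, 5.03 and 4.84 in NIL DOG1, against 7.24, 6.92 and 7.16 in NIL DOG3 and 6.95, 6.84 and 6.73 in NIL DOG6. At 20C they read 5.20, 5.48 and 5.05 in NIL DOG1, against 6.08, 6.45 and 6.26 in NIL DOG3 and 6.09, 6.11 and 6.19 in NIL DOG6. NIL DOG1 lay below the others without overlap in both. NIL DOG1 minus the mean of the others was -1.89 ± 0.14 at 15C, -1.68 ± 0.15 at N0, -0.96 ± 0.14 at 20C, -0.73 ± 0.14 in LL and -1.37 ± 0.14 in SL. The single step from 20C to 15C, tested on its own, did not pass (adjusted p = 0.129, limma).

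The second was AT5G02370 (adjusted p = 0.0459, limma). At N0 its arrays read 5.12, 4.80 and 5.07 in NIL DOG1, against 3.55 and 4.39 in NIL DOG3 and 4.08, 3.67 and 3.86 in NIL DOG6. At 20C they read 5.12, 5.18 and 5.43 in NIL DOG1, against 5.23, 5.46 and 5.45 in NIL DOG3 and 4.63, 5.07 and 4.72 in NIL DOG6. NIL DOG1 was thus above all other arrays at N0 and within their range at 20C. The difference from the mean of the others was 0.59 ± 0.15 at 15C, 1.08 ± 0.16 at N0, 0.15 ± 0.15 at 20C, -0.31 ± 0.15 in LL and 0.31 ± 0.15 in SL. With each array's median subtracted, with a block for condition and replicate number, or without the SL arrays numbered 2, the adjusted p was 0.0622, 0.116 and 0.0819.

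The response of the members to each condition, as the mean of the 3 lines, does not use the line difference either. At 15C, 45 members on chromosome 4 changed (25 rose, 20 fell; 23.3%) and 52 on chromosome 5 (36 rose, 16 fell; 26.3%), against 25.3% of all probe sets in limma (12.5% rose, 12.8% fell). The median change was -0.00 on chromosome 4 and 0.03 on chromosome 5, against 0.00 over all probe sets. The members thus changed about as often as the array as a whole. The array means of the 4 pollen markers were 5.48, 5.85 and 6.46 (lowest, median and highest) at 15C, against 5.93, 6.53 and 7.34 at 20C, and their part in these changes was not tested. Of the 97 called members, 93 moved the same way in the 3 lines and 2 changed at least 2-fold.

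LAC8 had the largest rise at 15C. Its values were 2.76, 4.50 and 4.88 (lowest, median and highest of 9 arrays) at 15C, against 2.09, 2.75 and 3.49 at 20C. The ranges overlapped, and the mean change was 1.17 ± 0.20 (2.24-fold, adjusted p = 2.43e-05), made up of 1.63 in NIL DOG1, 1.86 in NIL DOG6 and 0.01 in NIL DOG3. CAX4, a vacuolar cation and proton exchanger gene, had 4.75, 5.18 and 5.61 at 15C, against 3.73, 4.04 and 4.69 at 20C, and rose by 1.03 ± 0.19 (adjusted p = 7.58e-05). SR1 had 7.86, 8.20 and 8.65 at 15C, against 6.68, 7.41 and 7.81 at 20C, and rose by 0.96 ± 0.13 (adjusted p = 3.12e-07). At CAX4 and SR1 the 15C arrays all lay above the 20C arrays. The chitinase-like gene ChiC rose by 0.70 ± 0.14 (adjusted p = 0.000159), and the other 8 of its family did not pass.

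Falls at 15C were smaller. AT5G01015 had 3.63, 4.54 and 4.91 at 15C, against 4.70, 5.28 and 5.99 at 20C, a change of -0.92 ± 0.15 (adjusted p = 1.03e-05, limma). AT5G01950 changed by -0.64 ± 0.12 (adjusted p = 9.62e-05) and AT5G01020 by -0.61 ± 0.09 (adjusted p = 2.84e-06). The arrays of 15C and 20C overlapped at each of these 3. CIPK12 fell by 0.32 on the log2 scale (± 0.05, adjusted p = 4.66e-06), the opposite direction to SR1.

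At N0, 18 members on chromosome 4 changed (11 rose, 7 fell; 9.33%) and 26 on chromosome 5 (15 rose, 11 fell; 13.1%), against 11.9% of all probe sets (5.86% rose, 6.07% fell). All 44 moved the same way in the 3 lines and none changed 2-fold. KUP9, whose protein carries potassium into cells, had 7.06, 7.37 and 7.73 at N0, against 7.89, 8.03 and 8.54 at 20C. The groups did not overlap, and the change was -0.72 ± 0.06 (adjusted p = 1.29e-10), with -0.76 in NIL DOG1, -0.78 in NIL DOG3 and -0.62 in NIL DOG6.

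AT5G02370, whose line difference varied with condition, fell by 0.86 on the log2 scale on average at N0 (± 0.11, adjusted p = 2.62e-07), with changes of -0.24 in NIL DOG1, -1.41 in NIL DOG3 and -0.94 in NIL DOG6. The RING ubiquitin ligase gene AT4G19700 changed by -0.64 ± 0.11 (adjusted p = 9.91e-05). SR1 had 7.72, 8.03 and 8.41 at N0, against 6.68, 7.41 and 7.81 at 20C, and rose by 0.77 ± 0.13 (adjusted p = 6.16e-05) with overlap between the groups. AT4G18920 rose by 0.55 ± 0.08 (adjusted p = 3.99e-06). CAX4 rose by 0.61 ± 0.20 with an adjusted p of 0.0395, which was 0.0652 when only the arrays of N0 and 20C entered the fit.

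Under low light 13 members on chromosome 4 changed (6 rose, 7 fell; 6.74%) and 20 on chromosome 5 (8 rose, 12 fell; 10.1%), against 6.36% of all probe sets (2.73% rose, 3.63% fell). Without the SL arrays numbered 2 the counts were 5 and 11, and with only the LL and SL arrays in the fit 5 and 8. The array means of the 4 pollen markers were 4.82, 5.68 and 5.98 (lowest, median and highest) in LL, against 5.81, 6.76 and 8.58 in SL, and their part in these changes was not tested. Of the 33 called members 31 moved the same way in the 3 lines.

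FER1, the ferritin that stores iron in plastids, had 6.69, 7.62 and 8.08 in LL, against 8.02, 8.22 and 8.67 in SL. The groups barely overlapped, and the mean change was -0.74 ± 0.11 (adjusted p = 4.66e-05, limma), with -1.19 in NIL DOG1, -0.95 in NIL DOG6 and -0.09 in NIL DOG3. Without the SL arrays numbered 2 the mean change was -0.68 (adjusted p = 0.00163). FER1 also rose by 0.58 ± 0.11 at 15C (adjusted p = 7.57e-05) and by 0.42 ± 0.11 at N0 (adjusted p = 0.00886), each against 20C. The F test for NIL DOG1 against the others was not passed at FER1 (adjusted p = 0.155), and whether NIL DOG3 responded differently at FER1 or LAC8 was not tested.

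AT5G01210 had 5.75, 6.37 and 6.94 in LL, against 4.63, 5.77 and 5.89 in SL, and rose by 0.77 ± 0.10 (adjusted p = 9.28e-06, limma). Its neighbour AT5G01215 rose by 0.69 ± 0.11 (adjusted p = 0.000109) and AT5G01950 by 0.62 ± 0.12 (adjusted p = 0.0014), and all 3 overlapped between LL and SL. Without the SL arrays numbered 2 these changes were 0.71 (adjusted p = 0.000249), 0.73 (adjusted p = 0.00124) and 0.60 (adjusted p = 0.0154). AT4G18596 had 3.97, 4.84 and 5.64 in LL, against 4.79, 5.75 and 7.72 in SL, a change of -1.19 ± 0.27 (adjusted p = 0.00584). AT5G01610 changed by -0.68 ± 0.19 (adjusted p = 0.0224). Both calls were lost without the SL arrays numbered 2, where the changes were -0.62 (adjusted p = 0.0584) for AT4G18596 and -0.29 (adjusted p = 0.363) for AT5G01610.

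**Figure D5:**
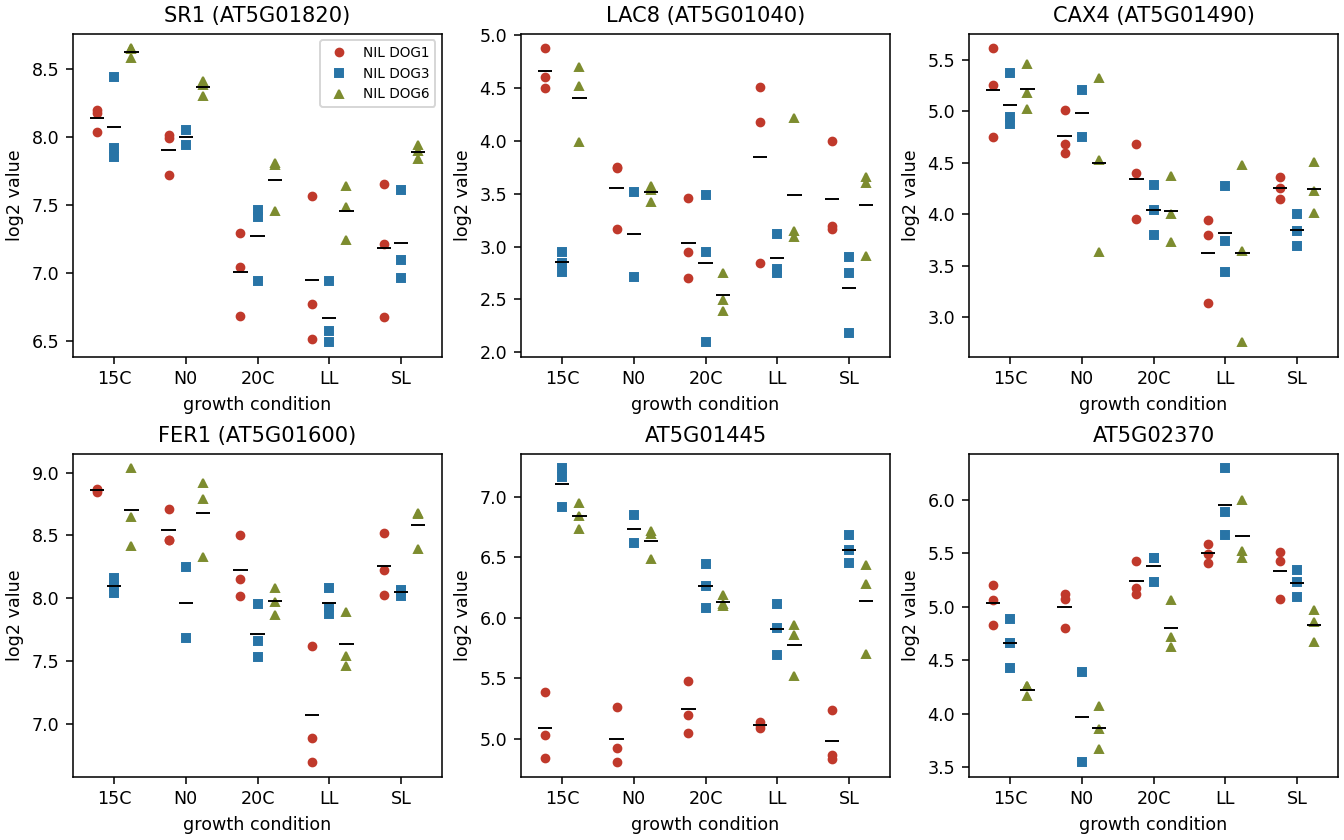
Log2 value (y axis) on every array at 6 members that moved with a growth condition (x axis), by line, with the group mean as a bar. SR1 is high at 15C and N0 in all lines, NIL DOG3 shows the smallest shift of LAC8 at 15C (0.01) and of FER1 in LL (-0.09), and AT5G01445 stays between 4.81 and 5.48 in NIL DOG1 while the other lines reach 7.24 at 15C.

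HSC70-1, whose protein is a general folding helper, was called at 15C, at N0 and in LL, though the LL call did not hold in every fit. It fell by 0.24 on the log2 scale at 15C (± 0.05, adjusted p = 0.000411) and by 0.35 at N0 (± 0.05, adjusted p = 1.34e-05), and rose by 0.20 ± 0.05 in LL (adjusted p = 0.0163). The LL call was lost without the SL arrays numbered 2 (0.16, adjusted p = 0.136) and with only the LL and SL arrays in the fit (adjusted p = 0.0942). Among the other families, AT4G19530 of the 4 TIR-NBS-LRR genes rose at 15C by 0.26 ± 0.09 (adjusted p = 0.0251), GSTL3 by 0.46 ± 0.14 (adjusted p = 0.0105) and LECRKA4.3 by 0.39 ± 0.10 (adjusted p = 0.00274). CYCT1;4 fell at 15C by 0.18 on the log2 scale (± 0.07, adjusted p = 0.0427), and NIP1;2 rose at N0 by 0.17 ± 0.05 (adjusted p = 0.0248). The phloem protein and pyruvate decarboxylase pairs did not pass in any of the 3 comparisons.

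Members apart in NIL DOG1 and members not apart both responded. At 15C, 19 of 42 apart and 26 of 151 other members changed on chromosome 4, and 17 of 41 and 35 of 157 on chromosome 5. At N0 the counts were 6 of 42 and 12 of 151 on chromosome 4 and 9 of 41 and 17 of 157 on chromosome 5. In LL they were 5 of 42 and 8 of 151, and 2 of 41 and 18 of 157. Over all probe sets 25.3% changed at 15C, 11.9% at N0 and 6.36% in LL. The apart members also had the brighter probe sets, as given above. They were called apart in the same fit, where a small spread favours both kinds of call. The part of signal and of spread in these counts was not tested.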

How the data were processed

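The deposited table holds RMA log2 values, made by the authors with RMA per the submitters' processing notes, for 27827 probe sets named by locus on 44 arrays. RMA version, array annotation and genome build were not given in the sources used here, so no coordinates are printed. Quantile normalization within RMA would hide a change of total RNA. Symbols came from a RefSeq table of TAIR10.1, which listed 188 and 193 of the members on chromosomes 4 and 5 and gave 64 and 75 a symbol. Members AT5G01710 and AT5G01712 have identical values and cannot be told apart.

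One linear model with a mean for each of the 15 groups was fitted in limma 3.58.1 under R 4.3.3 and moderated with eBayes, with neither filter nor block, leaving 29 residual degrees of freedom and a median residual SD of 0.199. Tests were two-sided and adjusted by Benjamini-Hochberg over all probe sets, with a threshold of 0.05. The median SE was 0.0732 for a line difference, 0.0922 for 15C and LL and 0.096 for N0; the number of arrays limits this precision. The code was tested on simulated data.

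Members, lists and tests were chosen with earlier results of these data known. Named were the up to 8 apart members per stretch and direction with the largest smaller difference, the up to 3 largest called changes per condition and direction, members called in the F test, loci at the limits of the stretches and the family lists; others named were picked after their values were seen. Alternatives were a variance trend, only probe sets above the median level, median-subtracted arrays, replicate blocks, no identical probe sets, only the arrays compared, no SL arrays numbered 2 and each array left out.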

Additional observations from a re-analysis of the deposited data

Results flagged for a closer look

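At 2 members the difference between NIL DOG1 and the mean of NILs DOG3 and DOG6 itself differed between the 5 growth conditions in limma's moderated F test. For AT5G01445 the adjusted p was 0.0323, with NIL DOG1 lower than the mean of the others in each condition, by between 0.73 and 1.89. For AT5G02370 the adjusted p was 0.0459, with NIL DOG1 higher by 1.08 ± 0.16 at N0 and lower in LL (-0.31 ± 0.15). Groups held 3 arrays or fewer, so single arrays far from their group were not looked for.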

How the results depend on the processing

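Among the counts of members and the differences, condition changes and F tests recomputed, none changed direction. These covered the genes named for the largest line differences, the largest condition changes and the F test, with HSC70-1, and the smaller differences and other family values named above were not recomputed. Of the counts of members, those for NIL DOG1 against both other lines, for NIL DOG6 minus NIL DOG3, and for the responses to 15C and N0 stayed within 1.5 times their reported value under every alternative run, and so did the counts within 15C, N0, 20C and LL. Counts for the LL response were 5 (chromosome 4) and 8 (chromosome 5) with only the arrays of LL and SL, and 5 and 11 without the SL arrays numbered 2, against 13 and 20, and the cause was not tested. Leaving out 1 array gave 7 to 13 and 12 to 23, with the lowest counts of 7 and 12 without NIL DOG6 LL replicate 1 and 12 on chromosome 5 without NIL DOG6 SL replicate 2. The other arrays whose removal moved an LL count by over 1.5 times were NIL DOG1 SL replicate 3 (8 and 13), and on chromosome 5 NIL DOG3 LL replicate 3 and NIL DOG1 SL replicate 2 (13 each).

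The 2 F test calls on chromosome 5 became 1 with array medians subtracted, 1 with a replicate block within condition and 1 without the SL arrays numbered 2, an alternative chosen after seeing the data, as for the line counts within SL. They were 0 to 2 when 1 array was left out, and in these 44 fits AT5G02370 lost its call in 33 and AT5G01445 in 16. The adjusted p ranged from 0.00761 to 0.0919 for AT5G01445 and from 0.00405 to 0.154 for AT5G02370 over all alternatives. Line counts within SL were 11 on chromosome 4 with only probe sets above the median level, and 11 and 12 without the SL arrays numbered 2, against 17 and 20. Over all alternatives the adjusted p of CAX4 at N0 ranged from 0.00567 to 0.145, that of AT4G18596 in LL from 0.00169 to 0.0923 and that of AT5G01610 in LL from 0.0102 to 0.363.

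The labels do not say what a replicate number marks. The fit without a block was kept because not every same-numbered pair correlated above 0.1, which does not show that same-numbered arrays are independent. In SL the 3 arrays numbered 2 shared high pollen marker means, 7.68 to 8.58 against 5.81 to 7.57 on the other SL arrays. Deviations from group means of same-numbered arrays of 2 lines in a condition correlated between -0.14 and 0.40 over 43 pairs (median 0.04, 12 over 0.1), and those of arrays with other numbers between -0.27 and 0.22 over 86 pairs (median -0.01, 10 over 0.1). The number was also entered as a replicate block shared by all conditions. The counts were then 46 and 51 for 15C, 16 and 25 for N0, and 12 and 19 for LL. They were 0 and 2 for the F test, 42 and 40 for NIL DOG1 against both lines and 10 and 42 for NIL DOG6 minus NIL DOG3. With a block within condition instead, the F test count on chromosome 5 was 1, and AT5G02370 lost its call (adjusted p = 0.116, limma F test).

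Line differences cannot be told apart from probe sequence differences, each genotype is 1 line, and the limits of the stretches and their divisions rest on these same arrays.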
